A study of Homo sapiens with 9 samples.

Results

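The genes examined here were 35 genes of glucose uptake, glycolysis, lactate metabolism and pyruvate entry into mitochondria, taken from a list by symbol. This list and the further lists below were chosen with earlier results of these data known. They stand among 60708 genes that were counted in each library. All 35 were found in the files, 34 had at least 1 count in some library, and 32 passed the filter on low counts and could be tested. *PGAM2* had no count in any library, *HK3* had 0 to 3 counts and *PKLR* 0 to 6.

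According to the labels, the RNA came from MDA-MB-231, a human triple-negative breast cancer line with mesenchymal features, grown in DMEM with fetal bovine serum and given no treatment. The WT group held 3 libraries of the parental line. The *SNAI1*-KO group held 6 libraries, 3 each from the clones CS16 and CS19, which were made by co-transfection of Cas9, guide plasmids for *SNAI1* and HDR plasmids, followed by puromycin selection. *SNAI1* encodes a zinc-finger repressor that drives epithelial-mesenchymal transition. Each clone grew from a single cell, so the 6 KO libraries stand for 2 clones. The labels do not say that libraries of a group came from separate cultures, so p-values measure only the spread between these libraries.

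Glycolysis turns glucose into pyruvate in the cytosol. Glucose enters through SLC2A carriers, hexokinases trap it as glucose-6-phosphate, and phosphofructokinase, enolase and pyruvate kinase catalyse steps that occur in several isozymes with distinct tissue distribution. Pyruvate is then either reduced to lactate by lactate dehydrogenase and exported through SLC16A carriers, or enters mitochondria, where the pyruvate dehydrogenase (PDH) complex, which PDH kinases switch off, converts it to acetyl-CoA. Many tumor cells run glycolysis to lactate even with oxygen present, and several of its genes are classical targets of the hypoxia factor HIF1A.

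The libraries held between 19527195 and 28627777 counts. *SNAI1* itself had 16, 38 and 21 counts in the WT libraries, 26, 40 and 49 in the CS16 libraries and 57, 94 and 94 in the CS19 libraries. It was not lower in any library labelled KO than in WT-1. With all libraries and the filter on low counts, *SNAI1* did not pass the test between KO and WT. With no such filter it passed, at a log2 fold change of 1.01 (adjusted p = 0.0459). Without WT-2 its log2 fold change was 1.405 (adjusted p = 0.0146), and it also passed without CS16-1 (1.03, adjusted p = 0.0454). With RT-qPCR, the study found lower *SNAI1* mRNA in both clones at each exon, a drop that these counts did not show. The reason for this difference was not tested. The study also reported no detectable SNAI1 protein in the clones, and deletions within the gene in its aligned RNA reads. The gene-level count joins reads from all of the gene, so this count does not settle the labels. WT-2 stood apart from the other WT libraries: chi-square per degree of freedom over all genes was 188 in its pair with WT-1 and 230 in its pair with WT-3, while the pair without it gave 14.6. It gave the highest WT value for 15 and the lowest for 17 of the 32 tested genes, and results that rest on it are given below with and without it. The summed level of 8 markers of mesenchymal basal breast cancer cells was 6792 to 7513 normalized counts per 1000000 (CPM) in WT and 517.3 to 568.2 in the KO libraries. *CD44*, a surface marker of such cells, was at 0 to 2 counts in each KO library. The 8 luminal markers summed to 1459 to 2140 CPM in WT and 56.5 to 98.8 in KO, with *KRT19* at 0 or 1 count in KO. Of the 6 luminal markers that were tested, 5 were lower and 1 higher in KO: *FOXA1*, a luminal transcription factor, had 0, 0 and 2 counts in WT, 63 to 86 in CS16 and 336 to 494 in CS19. The 7 embryonic kidney markers summed to 58.0 to 75.1 CPM in WT and 186 to 249.9 in KO. In this list *NEFL* (0 counts in WT, 1609 to 3258 in KO) and *PAX8* (202 to 452 counts in WT, 0 to 2 in KO) moved in opposite directions. Of the 5 neuroendocrine markers tested, 3 were higher and 1, *ENO2*, lower. *NCAM1*, a neural adhesion protein, had 0 to 2 counts in WT and 903 to 1258 in KO. Some markers of the labelled line, such as *CD44* and *AXL* (2 to 12 counts), were thus near 0 in the KO libraries. Others were lower but remained, such as *VIM* at 303.6 to 356.2 CPM in KO and 666.5 to 1096 in WT. These counts do not settle whether the clones derive from MDA-MB-231. In each comparison with WT, the loss of *SNAI1*, the choice of a single cell and a different origin of the cells cannot be told apart. The part of these marker changes in the results below was not tested. Below, KO, CS16 and CS19 stand for the libraries carrying those labels.

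Between KO and WT, 1 lactate carrier gene rose and the other fell to trace levels, *SLC2A1*, *PFKP* and *ENO2* fell by more than 2 on the log2 scale, and 12 further genes fell by less. Of the 32 tested genes, 7 were higher and 16 lower in KO at an adjusted p below 0.05. This equals 71.9% of them, where 63.7% of all 19631 tested genes passed (31.1% higher, 32.6% lower). At the additional cut-off of a log2 fold change of 2 in either direction, 1 gene was higher (*SLC16A1*) and 4 were lower (*SLC2A1*, *PFKP*, *ENO2* and *SLC16A3*), against 26.9% of all tested genes (12.6% higher, 14.3% lower). The median log2 fold change of the 32 genes was -0.45, and that of all tested genes was -0.0040. The KO and WT libraries did not overlap for 22 of the 32 genes, 7 higher and 15 lower in KO, where 58.3% of all tested genes did not overlap (29.7% higher, 28.7% lower). The summed level of the 35 genes was 14880 to 17540 CPM in WT, 10950 to 11160 in CS16 and 8582 to 9689 in CS19. The most abundant genes weigh most in this sum. Mean CPM in WT and KO was 4221 and 1866 for *ENO1* and 3007 and 1161 for *PKM*. For *TPI1* it was instead 764.9 and 1071. In bulk RNA, fewer cells of a type and less RNA per cell cannot be told apart.

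**Figure D1:**
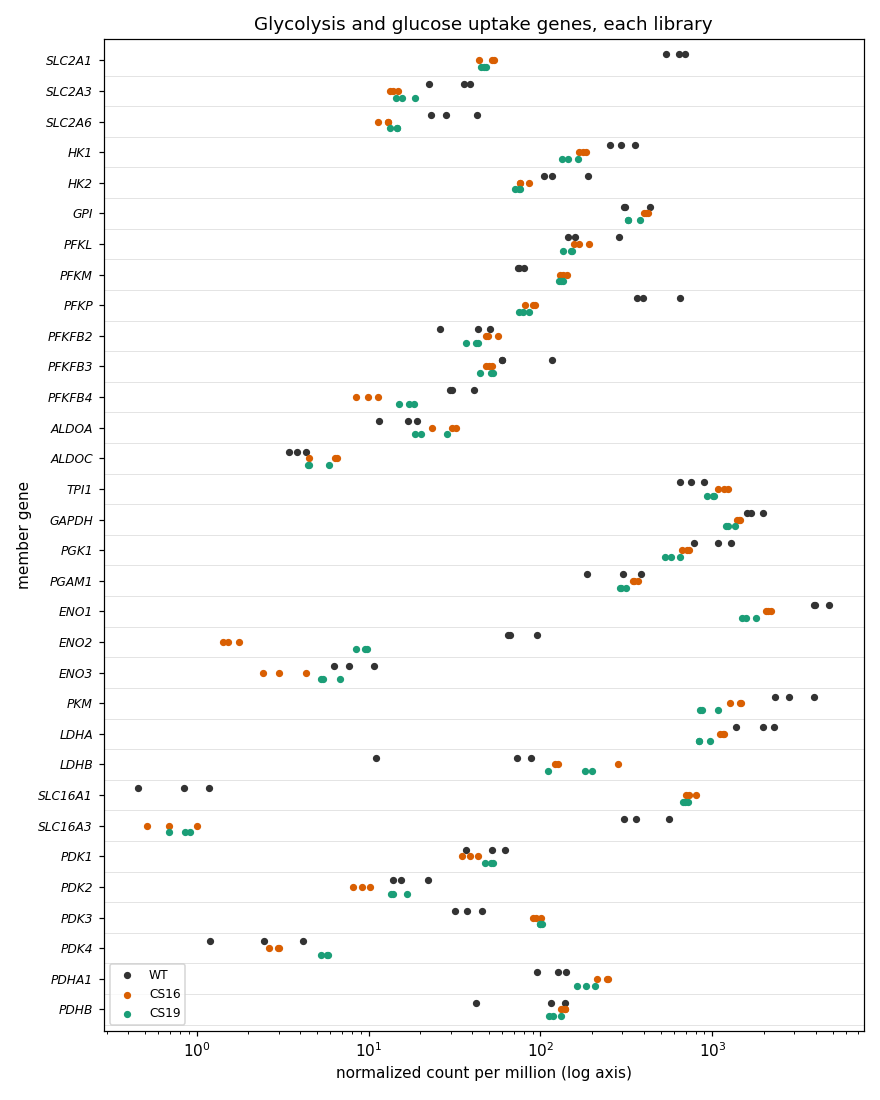
Normalized CPM (log axis) of the 32 tested genes in each library, in pathway order, with WT in black, CS16 in orange and CS19 in green. *SLC16A1* and *SLC16A3* swap their levels between WT and the clones, *SLC2A1* and *PFKP* lie lower in each of the 6 KO libraries, and *ENO2* lies lower in CS16 than in CS19.

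Each of the 3 glucose transporters was lower in KO. *SLC2A1* encodes GLUT1, the carrier responsible for basal glucose uptake in most cultured cells. Its level was 539.9, 693 and 636 CPM in the WT libraries, 53.6, 44.0 and 52.2 in CS16 and 46.9, 48.3 and 45.4 in CS19. The lowest WT library was thus above 10 times the highest KO library, and the log2 fold change was -3.69 ± 0.13 (SE, adjusted p = 1.26e-09). *SLC2A3* encodes GLUT3, a high-affinity carrier typical of neurons, and had 36.1, 22.4 and 38.9 CPM in WT against 13.3 to 18.8 in KO, with a log2 fold change of -1.10 ± 0.19 (adjusted p = 0.00032). *SLC2A6* encodes GLUT6, a carrier found mainly on lysosomal membranes, and had 23.1, 42.5 and 28.1 CPM in WT against 11.3 to 14.7 in KO (log2 fold change -1.23 ± 0.19, adjusted p = 0.000141). The groups did not overlap for any of the 3 genes. The files also count processed pseudogenes of *SLC2A3*, which held 1.45% to 6.12% as many counts as the gene.

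Both detected hexokinases were lower. *HK1*, the form found in most tissues and bound to mitochondria, had 254 to 356 CPM in WT and 134 to 184 in KO, with a log2 fold change of -0.90 ± 0.15 (adjusted p = 0.00027). *HK2*, the form that insulin and hypoxia induce and that many tumors express, had 116.2, 189.8 and 105 CPM in WT, 76.3, 85.6 and 76.0 in CS16 and 75.9, 71.3 and 74.6 in CS19. WT-2 was far above the other WT libraries, but each WT library lay above each KO library (log2 fold change -0.84 ± 0.18, adjusted p = 0.00133). Without WT-2 the difference was -0.54. *GPI*, which converts glucose-6-phosphate to fructose-6-phosphate, did not pass the test, with a log2 fold change of 0.10 ± 0.16 and 307 to 437 CPM in WT against 324 to 419.7 in KO.

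The 3 phosphofructokinases, which catalyse the committed step, moved apart. *PFKP*, the platelet form, had 363, 646 and 395 CPM in WT, 90.7, 81.1 and 93.1 in CS16 and 78.7, 86.0 and 74.6 in CS19. These levels did not overlap, and *PFKP* was 5.57-fold lower in KO (log2 fold change -2.48 ± 0.18, adjusted p = 2.59e-07). *PFKM*, the muscle form, was instead higher, at 75.5, 74.3 and 80.2 CPM in WT and 128 to 143 in KO (log2 fold change 0.81 ± 0.12, adjusted p = 8.04e-05). *PFKL*, the liver form, had 145, 287 and 158 CPM in WT and 136 to 190.5 in KO and did not pass the test (-0.31 ± 0.21), and the sign of its difference rested on WT-2, without which it was 0.06. The bifunctional PFKFB enzymes set the level of fructose-2,6-bisphosphate, the main activator of phosphofructokinase. *PFKFB4* was lower in KO (30.6, 41.1 and 29.8 CPM in WT, 8.41 to 11.3 in CS16, 15.1 to 18.4 in CS19, log2 fold change -1.34 ± 0.25, adjusted p = 0.000575). *PFKFB3* was also lower, at 59.6, 116.3 and 59.7 CPM in WT and 44.2 to 53.0 in KO (log2 fold change -0.65 ± 0.20, adjusted p = 0.0147), a difference of -0.26 without WT-2 that still passed. *PFKFB2* had 25.9 to 51.2 CPM in WT and 36.7 to 56.8 in KO and did not pass (0.20 ± 0.21, and -0.04 without WT-2).

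From aldolase to phosphoglycerate mutase, 2 genes were higher, 2 were lower and 2 did not pass. *TPI1*, which interconverts the triose phosphates, was higher in KO, at 650 to 897 CPM in WT and 935 to 1229 in KO (log2 fold change 0.49 ± 0.16, adjusted p = 0.0177, and 0.0572 without WT-1). *ALDOA*, the main aldolase of muscle and of most cultured cells, had 17.0, 11.4 and 19.0 CPM in WT, 32.1, 23.5 and 30.7 in CS16 and 20.3, 28.8 and 18.6 in CS19. The groups overlapped, the log2 fold change was 0.70 ± 0.23 (adjusted p = 0.0212), and without WT-2 the adjusted p was 0.0564. The level of *ALDOA* is uncertain, because 54.2% of its annotated exon bases are shared with other genes and read pairs that fell on more than 1 gene were not counted. *PGK1*, the first step that yields ATP, was lower in KO, at 1075, 780.0 and 1292 CPM in WT and 531 to 733 in KO (log2 fold change -0.70 ± 0.18, adjusted p = 0.00437). *GAPDH*, the step that yields NADH and the reference gene of the study's RT-qPCR assays, had 1677, 1585 and 1980 CPM in WT and 1206 to 1439 in KO. Each KO library was below each WT library, with a log2 fold change of -0.38 ± 0.14 (adjusted p = 0.0324). The adjusted p of *GAPDH* was above 0.05 when WT-1, WT-3, CS16-1 or any 1 of the 3 CS19 libraries was left out, up to 0.165 without WT-3. *ALDOC* (0.47 ± 0.22) and *PGAM1* (0.16 ± 0.20) did not pass. Without WT-2 *ALDOC* had an adjusted p of 0.0481, and the sign of *PGAM1* rested on WT-2, without which its difference was -0.08.

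All 3 enolases, which form phosphoenolpyruvate, were lower. *ENO1*, the form found in most tissues, had the highest level per exon length of the 35 genes in WT, with a mean of 2577 TPM, counts scaled by exon length. *GAPDH* came next at 2322 TPM. Another gene shares 17.6% of the *GAPDH* exon bases, and pairs on both genes were not counted, so this order is uncertain. *ENO1* stood at 3973, 3923 and 4767 CPM in WT and 1486 to 2184 in KO (log2 fold change -1.18 ± 0.17, adjusted p = 7.91e-05). *ENO2*, the neuronal form and a common marker of neuroendocrine cells, had 66.6, 95.02 and 64.8 CPM in WT, 1.42, 1.53 and 1.75 in CS16 and 9.74, 9.51 and 8.43 in CS19. The 3 groups were fully separate, and the pooled log2 fold change of -3.80 ± 0.60 (adjusted p = 0.000167) combined -5.55 ± 0.27 in CS16 with -3.00 ± 0.23 in CS19. *ENO3*, the muscle form, had 6.33 to 10.7 CPM in WT, 2.44 to 4.32 in CS16 and 5.30 to 6.78 in CS19. The CS19 libraries overlapped with WT, and its pooled difference of -0.86 ± 0.31 (adjusted p = 0.0307) was above 0.05 without WT-2 (0.108), WT-3 (0.0532), CS16-1 (0.0536) or CS16-3 (0.0567). *PKM*, the pyruvate kinase of proliferating and most adult tissues, was lower too, at 2306, 3910 and 2807 CPM in WT, 1265 to 1464 in CS16 and 846 to 1073 in CS19 (log2 fold change -1.37 ± 0.23, adjusted p = 0.000248). The gene-level count does not separate its M1 and M2 splice forms.

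The largest differences were in the lactate carriers. *SLC16A1* encodes MCT1, which moves lactate, pyruvate and ketone bodies in either direction. It had 17, 8 and 23 counts in the WT libraries, against 14855, 16835 and 17596 in CS16 and 15228, 15535 and 22127 in CS19. In CPM these were 0.840, 0.458 and 1.18 in WT and 675 to 805 in KO, a log2 fold change of 9.75 ± 0.31 (adjusted p = 7.66e-10). *SLC16A3* encodes MCT4, the low-affinity exporter typical of highly glycolytic cells. It ran the other way, with 6171, 9813 and 6986 counts in WT against 14, 21 and 13 in CS16 and 20, 16 and 26 in CS19. Its level was 305, 561 and 359 CPM in WT and 0.518 to 1.00 in KO, a log2 fold change of -9.03 ± 0.26 (adjusted p = 3.91e-10). Each library thus had 1 of the 2 carriers at a level above 300 CPM and the other at or below 1.18. *SLC16A1-AS1*, an antisense gene that shares 3.6% of the exon bases of *SLC16A1*, had 2, 3 and 2 counts in WT, 335, 387 and 460 in CS16 and 414, 388 and 467 in CS19. Pairs were counted without a strand setting, and those that fell on both genes were left out, so that reads of the shared bases cannot be told apart and entered neither count.

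The 2 lactate dehydrogenase subunits also moved apart. *LDHA*, the subunit that favors lactate formation, was lower in KO, at 1965, 1374 and 2292 CPM in WT, 1107 to 1175 in CS16 and 832 to 968 in CS19 (log2 fold change -0.89 ± 0.19, adjusted p = 0.00149). *LDHB*, the heart-type subunit, had 73.5, 11.04 and 88.2 CPM in WT, 127, 282 and 122 in CS16 and 181, 110.1 and 201 in CS19. Each KO library was above each WT library, and WT-2 held only 13.7% of the mean of the other WT libraries. The log2 fold change was 1.56 ± 0.54 (adjusted p = 0.0246), and it was 1.07 without WT-2 (adjusted p = 0.0144). In the separate fits of CS16 and CS19 against WT, *LDHB* did not pass (adjusted p = 0.0816 and 0.0824). In the annotation 33.4% of its exon bases lie also in another gene on the same strand, so its level is uncertain.

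At the entry to mitochondria, the catalytic subunit gene *PDHA1* of the PDH complex was higher in KO, at 126, 95.5 and 139.9 CPM in WT and 162 to 248 in KO (log2 fold change 0.80 ± 0.18, adjusted p = 0.00227). The opposite strand gene *MAP3K15* shares 21.2% of its exon bases. *PDHB*, which encodes the partner subunit, had 115.3, 42.4 and 139 CPM in WT and 111.8 to 139.5 in KO and did not pass (0.38 ± 0.29, and 0.0086 without WT-2). Of the 4 PDH kinases, which inhibit the complex by phosphorylating PDHA1, *PDK3* alone passed: it had 45.8, 31.9 and 37.2 CPM in WT and 90.5 to 102 in KO (log2 fold change 1.35 ± 0.15, adjusted p = 7.86e-06). *PDK1*, a HIF1A target, had 36.7 to 61.8 CPM in WT and 34.8 to 52.9 in KO (-0.16 ± 0.19), and without WT-1 its difference was 0.02. *PDK2* (-0.52 ± 0.25) and *PDK4* (0.70 ± 0.41) did not pass either in the pooled comparison, though *PDK2* had an adjusted p of 0.0424 without CS19-2 and *PDK4* one of 0.0375 without WT-1.

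To compare isozymes, the counts per exon length of each library (TPM) were used, and the share of 1 index gene in the summed TPM of its family was computed for each library. In 6 of the 11 families the share differed between KO and WT, each with groups that did not overlap (exact two-sided permutation test over libraries, p = 0.02381, the smallest that 6 against 3 libraries can give, and 0.0437 after Benjamini-Hochberg adjustment over the 11 families). *SLC16A1* made up 0.332% ± 0.189 (SD, n = 3) of the lactate carrier TPM in WT and 99.9% ± 0.0147 (n = 6) in KO. The platelet form *PFKP* made up 64.7% ± 1.45 of phosphofructokinase TPM in WT and 23.0% ± 0.958 in KO, where *PFKM* held 39.3% ± 2.63 instead of 12.1% ± 3.39 and *PFKL* 37.7% ± 2.11 instead of 23.3% ± 1.94. *SLC2A1* held 86.9% ± 0.142 of the transporter TPM in WT and 53.9% ± 3.53 in KO. The summed TPM of the 3 transporters was 304 to 414 in WT and 34.1 to 47.9 in KO, so the shares of *SLC2A3* and *SLC2A6* were larger in a total that was far smaller.

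*LDHA* made up 94.7% ± 3.20 of the lactate dehydrogenase TPM in WT and 74.7% ± 7.95 in KO. Its share was 93.0%, 98.4% and 92.8% in the WT libraries, 82.1%, 65.9% and 82.3% in CS16 and 69.5%, 81.3% and 67.2% in CS19, so the KO libraries spread widely within each clone. *PDK1* held 33.8% ± 5.91 of the PDH kinase TPM in WT and 22.5% ± 1.13 in KO, where *PDK3* held 54.6% ± 4.95. In the annotation 38.6% of the *PDK2* exon bases lie also in another gene. The shares in this family are therefore uncertain, as are those that involve *LDHB* or *ALDOA*. *ENO1* rose from 97.6% ± 0.704 to 99.3% ± 0.482 of enolase TPM, since *ENO2* went from 2.16% ± 0.631 to 0.390% ± 0.333. No hexokinase share passed the test, with *HK2* at 32.1% ± 4.30 in WT and 33.6% ± 2.81 in KO (difference 1.47 percentage points, exact permutation p = 0.595). *PFKFB3*, *ALDOA* and *PKM* shares had exact permutation p-values of 0.691, 0.452 and 0.667, and *PGAM1* was the only phosphoglycerate mutase with counts.

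**Figure D2:**
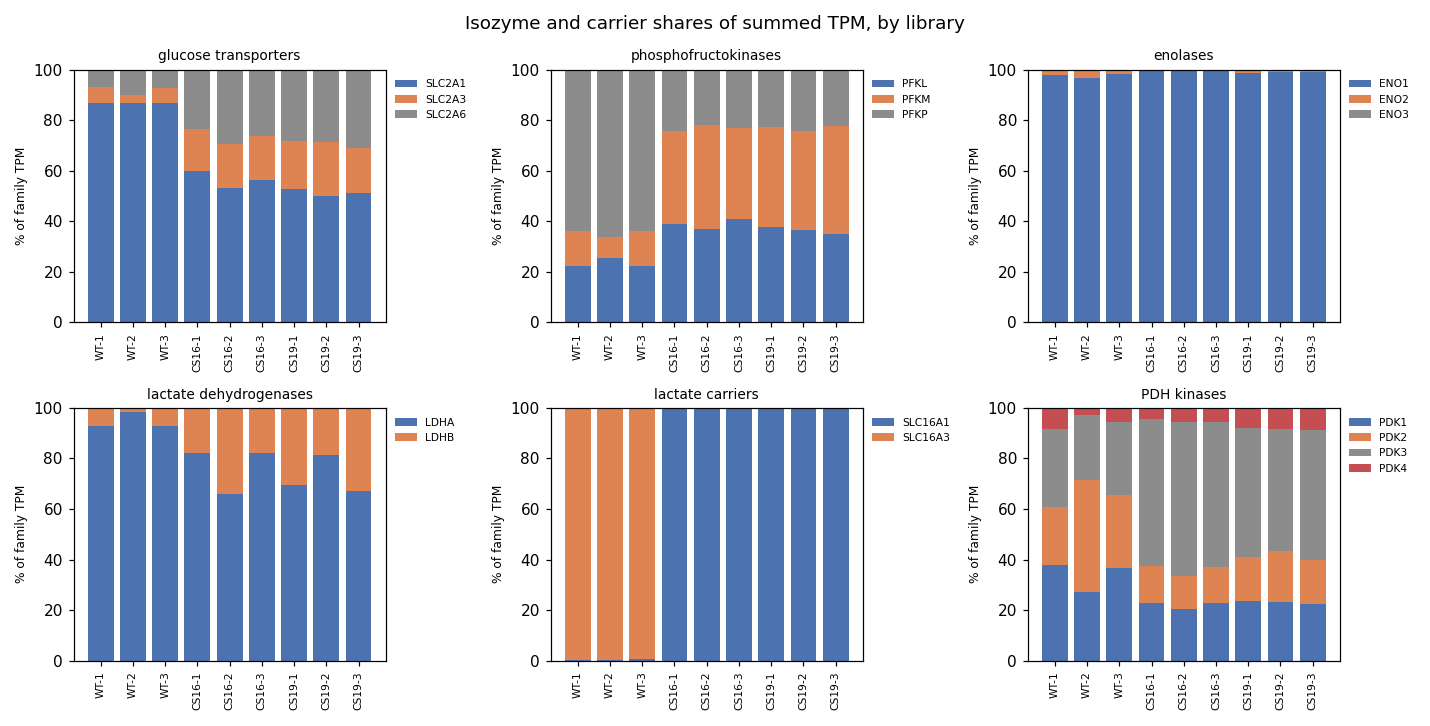
Share of each gene in the summed TPM of its family (percent, stacked bars), in each of the 9 libraries, for the 6 families whose index gene differed in share between KO and WT. The lactate carriers switch from *SLC16A3* to *SLC16A1*, phosphofructokinase from mostly *PFKP* to a mixture of the 3 forms, and *LDHB* takes 17.7% to 34.1% of lactate dehydrogenase TPM in the KO libraries.

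Against WT, the 2 clones gave the following counts, in comparisons that share the WT libraries. In CS16, 6 genes were higher and 14 lower (of all tested genes 55.6% passed, 27.0% higher and 28.6% lower), and in CS19 4 were higher and 13 lower (52.9% passed, 26.3% higher and 26.6% lower). Of the members, 4 were higher and 12 lower in both clones, 5 passed in 1 clone, and none passed in opposite directions. Of the 18293 genes tested in both comparisons, 23.2% were higher and 25.5% lower in both clones, 11.4% passed in 1 clone and 0.0547% passed in opposite directions. The genes higher in both were *SLC16A1*, *PFKM*, *PDK3* and *PDHA1*. Leaving out 1 library at a time gave 4 to 9 higher and 10 to 18 lower genes in CS16, while 43.3% to 72.7% of all tested genes passed, and 3 to 7 higher and 10 to 15 lower in CS19, while 40.8% to 71.2% passed. The highest counts of members and of all genes were both those without WT-2 (9 and 18 of the members in CS16, 7 and 15 in CS19).

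**Figure D3:**
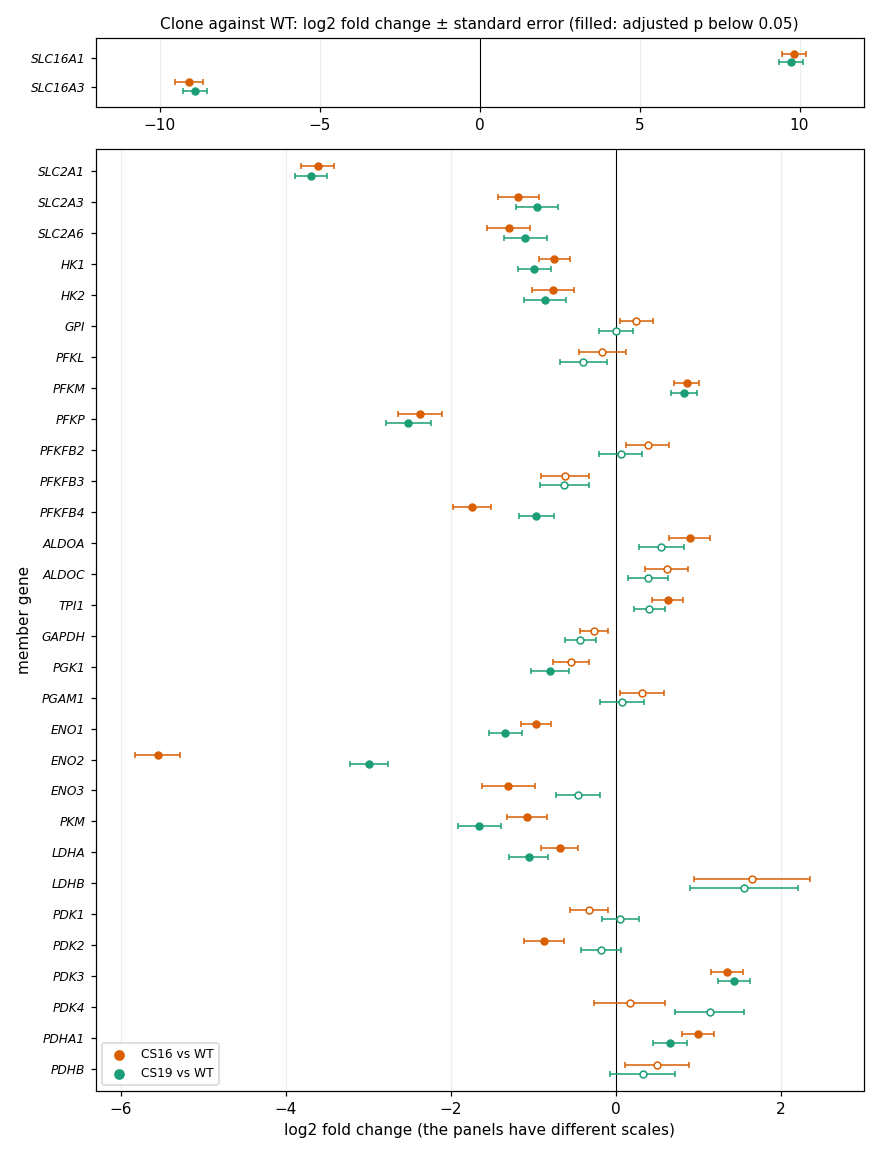
Log2 fold change with its standard error of CS16 (orange) and CS19 (green) against WT for the 32 tested genes, with filled points where the adjusted p was below 0.05. The upper panel has a wider scale for the lactate carriers, at 9.83 and 9.74 for *SLC16A1* and -9.09 and -8.91 for *SLC16A3*. In the lower panel *ENO2*, *PFKFB4* and *PKM* show the clones apart.

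The direct comparison of the clones, which uses no WT library, found 17 of 32 genes different at an adjusted p below 0.05, 11 higher and 6 lower in CS16, where 27.4% of all 17538 tested genes passed (14.7% higher, 12.7% lower). *ENO2* alone passed the cut-off of 2 on the log2 scale, as did 1.13% of all tested genes (0.633% higher, 0.496% lower). It was 5.84-fold lower in CS16 than in CS19 (log2 fold change -2.55 ± 0.16, adjusted p = 1.44e-07). Among the 11 genes higher in CS16 were *PKM* (0.58 ± 0.10, adjusted p = 0.000523), *ENO1* (0.38 ± 0.08, adjusted p = 0.00387), *LDHA* (0.38 ± 0.08, adjusted p = 0.00248), *PGK1* (0.26 ± 0.08, adjusted p = 0.0254) and *PGAM1* (0.25 ± 0.06, adjusted p = 0.00973). *PGK1* did not pass when CS16-1, CS16-3, CS19-1 or CS19-3 was left out, nor *PGAM1* without CS19-3. The 3 PDH kinases *PDK1*, *PDK2* and *PDK4* were lower in CS16, *PDK4* by the most, with 2.65 to 3.01 CPM against 5.33 to 5.82 in CS19 (-0.97 ± 0.15, adjusted p = 0.000322). *PFKFB4* (-0.77 ± 0.12, adjusted p = 0.000394) and *ENO3* (-0.84 ± 0.20, adjusted p = 0.00755) were lower as well. No difference passed for the lactate carriers: *SLC16A1* differed by 0.09 ± 0.07 and *SLC16A3* by -0.18 ± 0.34. *SLC2A1* (0.09 ± 0.09) and *PFKP* (0.14 ± 0.08) did not pass either. The count of genes higher in CS16 depended on single libraries, at 7 without CS16-1, 6 without CS16-3, and 5 without either CS19-1 or CS19-3. In these settings fewer of all tested genes passed as well: 20.3% without CS16-1, 20.3% without CS16-3, 19.2% without CS19-1 and 20.7% without CS19-3.

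The genes around the pathway were read from 7 further lists. Their counts stand beside the 63.7% of all tested genes that passed between KO and WT (31.1% higher, 32.6% lower). Of 18 tested paralogs of the members, 7 were higher and 4 lower in KO, in all 61.1%. *HKDC1*, a hexokinase-like gene, had 5.09 to 9.95 CPM in WT and 0 to 0.174 in KO. *SLC2A10* had 51 to 74 counts in WT and 0 to 3 in KO, whereas *LDHC*, the testis form of lactate dehydrogenase, had 1 to 3 counts in WT and 85 to 161 in KO. Among 5 tested gluconeogenesis genes 3 were lower and 1 higher (80.0% in all), and none was higher without WT-1. *FBP1*, which reverses the phosphofructokinase step and is known as a target of SNAI1 repression, had 466, 494 and 523 counts in WT, 0, 2 and 0 in CS16 and 8, 5 and 1 in CS19. *PC*, pyruvate carboxylase, had a log2 fold change of -3.09 ± 0.20 (adjusted p = 1.23e-07) and *G6PC3*, a glucose-6-phosphatase, one of -0.81 ± 0.26 (adjusted p = 0.0184). *G6PC3* had 22.9, 49.5 and 18.6 CPM in WT and 15.3 to 21.1 in KO, so the groups overlapped, and without WT-2 its difference was -0.27 and did not pass (adjusted p = 0.1095). *FBP1* thus had its higher level in the libraries labelled WT.

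Of 8 tested genes for pyruvate entry, 3 were higher and 1 lower, so that 4 passed. *PDP1*, a phosphatase that reactivates the PDH complex, had a log2 fold change of -2.08 ± 0.22 (adjusted p = 6.16e-06), *MPC1*, a subunit of the mitochondrial pyruvate carrier, one of 0.95 ± 0.35 (adjusted p = 0.0329), and *DLAT*, the E2 subunit of the PDH complex, one of 0.78 ± 0.27 (adjusted p = 0.0261). *MPC1* had 30.7, 13.7 and 36.4 CPM in WT, 62.6 to 75.0 in CS16 and 35.1 to 37.0 in CS19. Its groups overlapped, and it did not pass without WT-2 (0.63, adjusted p = 0.0919), without WT-1 or without any 1 of the CS16 libraries. *DLAT* still passed without WT-2, with a smaller difference of 0.46 (adjusted p = 0.0304). The count of 3 higher genes was 5 without WT-3 and 1 without any 1 of the CS16 libraries, and the count of lower genes was 2 without WT-1 and 3 without WT-3. The pentose phosphate pathway had 2 higher and 4 lower genes of 8 (75.0% in all), with *RPE*, an epimerase of pentose phosphates, higher (log2 fold change 1.16 ± 0.26, adjusted p = 0.00196). *TKTL1* had 0, 0 and 2 counts in WT and 6 to 27 in KO. The 2 higher genes became 1 without any 1 of the CS16 libraries, and the 4 lower genes became 2 without WT-2, any 1 of the CS16 libraries, CS19-1 or CS19-3. Of 9 tested glycogen genes, 2 were higher and 4 lower (66.7% in all), among them *PYGL*, the liver phosphorylase (2.13 ± 0.14, adjusted p = 1.46e-07), against *PYGB*, the brain phosphorylase (-2.26 ± 0.20, adjusted p = 1.86e-06), and *GBE1*, the branching enzyme (-2.67 ± 0.22, adjusted p = 7.98e-07).

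Regulators of glycolytic genes were mixed, with 5 higher and 8 lower of 19 (68.4% in all). *HIF1A*, the oxygen-regulated subunit of the hypoxia factor, had 776, 424 and 819 CPM in WT and 176 to 210.1 in KO (log2 fold change -1.78 ± 0.19, adjusted p = 6.09e-06). *EPAS1*, which encodes HIF2A, had a log2 fold change of -2.60 ± 0.24 (adjusted p = 2.08e-06). *TXNIP*, an inhibitor of glucose uptake that glucose itself induces, had one of -3.43 ± 0.24 (adjusted p = 2.29e-07), and its relative *ARRDC4* one of 2.53 ± 0.23 (adjusted p = 2.05e-06). Of 16 hypoxia response genes outside glycolysis, 2 were higher and 13 lower (93.8% in all), and their median difference was -1.06 on the log2 scale, where that of all tested genes was -0.0040. *ADM*, adrenomedullin, had 419 to 464 counts in WT and 4 to 20 in KO (-5.17 ± 0.30, adjusted p = 4.01e-08), and *CA9*, a carbonic anhydrase, had 40, 61 and 53 counts in WT and 0 or 1 in KO. *STC2*, stanniocalcin, went the other way, from 0.989 to 1.43 CPM in WT to 52.3 to 65.7 in KO (5.68 ± 0.22, adjusted p = 1.93e-09).

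**Figure D4:**
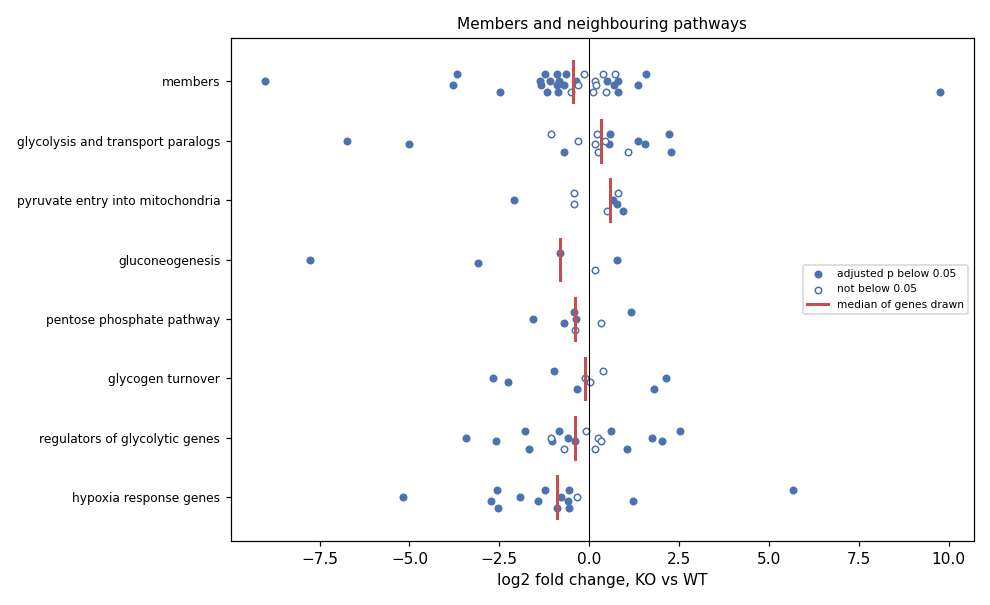
Log2 fold change between KO and WT for the 32 tested members and for the tested genes of 7 neighboring lists, with filled points where the adjusted p was below 0.05 and the median of the drawn genes as a red line. *TKTL1*, *SLC2A10*, *LDHC* and *CA9*, which were at or under 3 counts in each library of a group, are not drawn. The hypoxia response genes lie mostly to the left, at a drawn median of -0.89, and the paralogs on both sides, at 0.33.

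Promoter windows of RefSeq (GRCh38.p14, 250 bases before to 50 after a start) were searched on both strands for CAGGTG, the E-box that SNAI1 binds, for ACGTG and GCGTG, the 2 forms of the HIF core, and for CACGTG, the symmetric E-box. The ACGTG matches include those inside CACGTG. Of the 35 genes 32 had a window, 62 in all, several of them from a single gene. CAGGTG lay in 14.5% of these windows (20.6% of all 35116 windows), ACGTG in 35.5% (21.4%), GCGTG in 41.9% (36.5%) and CACGTG in 14.5% (7.26%). *SLC16A1*, *SLC2A3* and *PFKFB2* had no entry. The sequences below are some of the matches in front of genes that were lower in KO by more than 2 on the log2 scale, printed from 5′ to 3′ with the motif in capitals. Not printed are GCGTG matches in front of other starts of *PFKP* (at -61, -19 and -13) and *SLC16A3* (at -216, -89, -22 and -165). The upstream bases of *SLC2A1* held none of the 4 motifs. For *SLC16A3*, the 250 bases upstream of a start at chr17:82228792-82229041 (plus strand), outside annotated exons, held ACGTG at -68 and -55. For *PFKP*, the 250 bases at chr10:3068939-3069188 (plus strand), also outside annotated exons, held ACGTG at -139. The 30 bases of *ENO2* at chr12:6914450-6914479 (plus strand) lie within an annotated exon and hold ACGTG at -118. The 30 bases of *SLC16A3* at chr17:82228393-82228422 (plus strand) lie upstream of another start and hold CACCTG, the reverse complement of CAGGTG, at -30. A match describes the letters and shows no binding.

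SLC16A3 upstream window: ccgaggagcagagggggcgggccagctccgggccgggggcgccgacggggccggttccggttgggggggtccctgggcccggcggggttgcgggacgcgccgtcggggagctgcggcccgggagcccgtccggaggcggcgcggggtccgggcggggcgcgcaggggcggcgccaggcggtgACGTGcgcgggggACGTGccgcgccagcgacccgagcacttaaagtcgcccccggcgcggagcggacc

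PFKP upstream window: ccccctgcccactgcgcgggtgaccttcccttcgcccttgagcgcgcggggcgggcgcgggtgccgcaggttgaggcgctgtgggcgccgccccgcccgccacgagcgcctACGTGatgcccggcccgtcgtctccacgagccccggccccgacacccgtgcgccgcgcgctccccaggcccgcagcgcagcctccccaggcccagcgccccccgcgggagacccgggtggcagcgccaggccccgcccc

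ENO2 site: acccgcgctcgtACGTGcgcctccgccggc

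SLC16A3 E-box site: agggcgcggagcCACCTGgggaaacggaag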

How the data were processed

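RNA of 9 samples (3 WT, 3 CS16, 3 CS19) had been depleted of ribosomal RNA, made into stranded paired-end libraries and sequenced. According to the study's methods and the submitters' processing notes, the authors used Trimmomatic 0.36 for trimming and STAR 2.7.2b in two-pass mode for alignment to GRCh38, and counted pairs per gene of GENCODE 38 with featureCounts of Subread 2.0.0. Per the file headers, the deposited values are raw whole-number counts of properly paired reads with mapping quality of at least 30, without a strand setting, and pairs on more than 1 gene were left out.

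Genes were matched to symbols through a table of gene IDs and symbols (60507 of 60708, 99.67%). The counts were tested with edgeR 4.0.16 in R 4.3.3 (filterByExpr, TMM, quasi-likelihood test, Benjamini-Hochberg adjustment over all genes tested), in separate fits for KO vs WT, CS16 vs WT, CS19 vs WT and CS16 vs CS19. The cut-offs, an adjusted p below 0.05 and a log2 fold change of 2, are those of the study. CPM use the TMM-scaled library sizes, TPM the exon lengths of the count files, and standard errors are the log2 fold change over the root of the F statistic. Isozyme shares were compared with an exact two-sided permutation test over libraries (84 splits). A level at or under 3 counts in each library of a group was given without a fold. The script was tested on counts simulated with a fixed spread and no outlying library, which checks the code and not the results above.

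The members and all lists were chosen with earlier results of these data known. All 35 members were named. Of each neighboring list, the 3 genes with the largest absolute log2 fold change among those that passed were named, plus *FBP1*, *HIF1A*, *SNAI1*, marker genes and genes overlapping a member. A gene that this rule would name is not reported here. Alternatives were DESeq2 1.42.0, other normalizations and filters, no 100 highest genes, a 3-group fit, a lower fold cut-off, a replicate block and leaving out each library. Of the other markers, summed over a list, myoepithelial ones had 25.6 to 26.5 CPM in WT and 3.34 to 6.93 in KO, haematopoietic ones 5.14 to 6.75 and 2.35 to 3.30, muscle ones 8.07 to 18.0 and 5.54 to 7.07, and neuroendocrine ones 67.0 to 99.6 and 72.5 to 83.3, a sum in which *ENO2* was lower and *NCAM1*, *SYP* and *INSM1* higher in KO.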

Additional observations from a re-analysis of the deposited data

Results flagged for a closer look

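*HK2* in CS16-2 stood apart from the other KO libraries, at 85.64 CPM against 71.3 to 76.3 in the other 5. It was the only such value in 33 groups of KO libraries examined, where chance alone marks about 1 group in 20.

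In the direct test, 17 members differed between CS16 and CS19 (edgeR, adjusted p below 0.05), where 27.4% of all tested genes passed. On the log2 scale, 11 were higher in CS16: *PKM* by 0.5805, *ENO1* by 0.38, *LDHA* by 0.3752, *PDHA1* by 0.345, *PFKFB2* by 0.3305, *PGK1* by 0.2628, *GPI* by 0.2532, *PGAM1* by 0.2473, *HK1* by 0.2466, *PFKL* by 0.2315 and *TPI1* by 0.2245. In 6 the value was negative, lower in CS16: *ENO2* (-2.5466), *PDK4* (-0.9673), *ENO3* (-0.8432), *PFKFB4* (-0.7707), *PDK2* (-0.6842) and *PDK1* (-0.379). *HK1*, *GPI*, *PFKL*, *TPI1* and *PGK1* each lost significance when any 1 of several libraries was left out, and *PGAM1* without CS19-3 (0.0676) and *PDHA1* without CS19-1 (0.0547).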

How the results depend on the processing

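Replicate numbers did not pair the samples: deviations of same-numbered libraries had correlations of -0.209 to 0.195. With a replicate block, the members higher in CS16 than in CS19 numbered 4 (*HK1*, *GPI*, *PFKL*, *PFKFB2*, *TPI1*, *PGK1* and *PGAM1* were lost). Over all 17538 tested genes, those higher in CS16 then numbered 1703 in place of 2581. The block left 2 lower pentose phosphate genes, while the share differences kept their values (-33.02, -41.65, 1.692, -19.99, 99.59 and -11.24 percentage points for *SLC2A1*, *PFKP*, *ENO1*, *LDHA*, *SLC16A1* and *PDK1*) at an adjusted p of 0.1358, in a design whose smallest exact p is 0.07407. The lower pentose phosphate genes also numbered 2 with DESeq2 and with no filter, which gave 2 higher gluconeogenesis genes. Without the 100 highest genes, 7 members were higher in CS16 than in CS19, since 4 that had passed (*TPI1*, *ENO1*, *PKM* and *LDHA*) were then no longer tested. At a log2 fold change of 1, 3 members were higher and 9 lower in KO vs WT (47.1% of all tested genes passed), 2 and 9 in CS16 (46.0%) and 2 and 8 in CS19 (43.9%). Counting only the 27 members with under 10% shared exon bases, a choice made after seeing the data, left 4 higher in KO. This removed *ALDOA*, *LDHB* and *PDHA1* from the higher genes and only *GAPDH* from the lower ones. The same restriction was not applied to all genes.

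Leaving out 1 library each gave share differences of -34.19 to -32.28 (*SLC2A1*), -42.13 to -40.81 (*PFKP*), 1.3 to 1.981 (*ENO1*), -21.52 to -18.15 (*LDHA*), 99.49 to 99.67 (*SLC16A1*) and -14.63 to -9.209 (*PDK1*), with adjusted p-values of 0.06548 to 0.131, in designs whose smallest exact p-values are 0.03571 and 0.07143. Values that ranged across 0, none of which passed in the report, were the shares of *HK2* (-0.7973 to 3.482, negative without WT-3), *PFKFB3* (-4.375 to 4.411, positive without WT-2) and *ALDOA* (-0.7075 to 6.692, negative without WT-2), and the log2 differences of *PFKL* (-0.4842 to 0.0626), *PFKFB2* (-0.0449 to 0.4295) and *PGAM1* (-0.0824 to 0.4401), which turned without WT-2, and of *PDK1* (-0.3447 to 0.018), which turned without WT-1. The cause was not tested. Counts ranged from 1 to 2 called higher in KO (*LDHB* added without WT-3), 3 to 7 higher in CS19, 5 to 14 higher in CS16 than in CS19, 1 to 5 and 1 to 3 higher and lower for pyruvate entry, 0 to 1 higher for gluconeogenesis, and 1 to 3 and 2 to 5 for the pentose phosphate pathway. The share of all tested genes with an adjusted p below 0.05 also moved. It was 59.9% to 67.2% in KO vs WT, 40.8% to 71.2% in CS19 vs WT and 19.2% to 28.2% in CS16 vs CS19. Members at least 2 log2 units lower numbered 4 in each comparison with WT whichever library was left out. Of the values of single genes under the other alternatives, 779 kept their direction and side of the threshold, 20 lost and 2 gained significance. *HK3*, *PKLR* and *PGAM2* were too shallow to test.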

Other observations

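Among the KO libraries, *LDHB* did not follow the clone. CS16-2, CS19-1 and CS19-3 had 282, 181 and 201 CPM, and CS16-1, CS16-3 and CS19-2 had 127, 122 and 110.1. The same libraries were the higher ones for *VHL*, an oxygen-pathway ubiquitin ligase component (72.4, 68.8 and 69.6 CPM against 46.5, 47.1 and 47.3), and for *ESRRA*, a nuclear receptor of energy metabolism (30.4, 25.1 and 24.6 against 19.4, 19.2 and 16.9). These genes were picked after their values were seen, no test was run, and no label separates these libraries.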
